A study of Mus musculus with 8 samples.

Results

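The 10 genes described here belong to the hypoxia-inducible factor (HIF) system and were followed in activated muscle stem cells (ASCs) with and without Mfn2. They are the subunits Hif1a, Epas1, Hif3a, Arnt and Arnt2, the prolyl hydroxylases Egln1, Egln2 and Egln3, the ubiquitin ligase subunit Vhl and the asparaginyl hydroxylase Hif1an. The members were chosen by name for their role in oxygen sensing, with earlier results of these data known. All 10 were among the 18877 gene symbols measured and among the 11754 tested. The data were RNA-seq libraries from 4 wild-type and 4 mfn2-/- samples of ASCs, the stem cells of skeletal muscle after they have left quiescence. In both groups the driver Pax7-CreERT2, which needs tamoxifen, turned on mito-Dendra2, a fluorescent protein placed in mitochondria, and the mfn2-/- group also had conditional alleles of Mfn2, which encodes a fusion protein of the mitochondrial outer membrane. All mice received tamoxifen at 75 mg/kg daily for 5 days, then 50 uL of 1.2% BaCl2 into the tibialis anterior muscle, and CD34-, Dendra2+, DAPI- cells were sorted 2 days after that injury. Because recombination depends on Pax7-CreERT2, deletion was limited to cells that had used this driver. Strain, age and sex are not given in the labels, and nothing there says that each library came from its own animal, so the p-values measure the spread between these libraries only.

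HIF is a pair of bHLH-PAS proteins. Its alpha subunit (HIF1A, EPAS1 or HIF3A) is made continuously and, when oxygen is plentiful, is hydroxylated on prolines by the EGLN enzymes, bound by VHL and degraded, while HIF1AN hydroxylates an asparagine that the coactivators p300 and CBP need unmodified. When oxygen is scarce the alpha subunit persists, joins ARNT or ARNT2 and binds hypoxia response elements, of which ACGTG is a common core. Injured muscle loses part of its blood supply for a time, and HIF activity in muscle stem cells has been studied in that setting. These control steps act on the protein, whereas the values here are levels of transcripts.

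Hif1a and Arnt were higher and Egln1 was lower in mfn2-/- ASCs. The promoters of these 3 members are shown because their changes passed the adjusted threshold described below. They are the RefSeq sequences of GRCm38.p6 from 250 bases before to 50 bases after the annotated start, on the strand of the gene. Capitals mark the letters ACGTG, a common hypoxia response core, or GGAAA, the core bound by NFAT factors, on either strand (CACGT and TTTCC on the strand shown).
Hif1a, chr12:73907617-73907916, plus strand: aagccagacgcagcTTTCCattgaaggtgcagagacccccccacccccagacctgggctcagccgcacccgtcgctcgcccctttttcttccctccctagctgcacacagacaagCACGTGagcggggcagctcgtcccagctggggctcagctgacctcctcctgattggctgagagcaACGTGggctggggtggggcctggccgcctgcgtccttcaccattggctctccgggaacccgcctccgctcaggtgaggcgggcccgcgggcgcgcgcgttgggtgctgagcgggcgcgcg
Arnt, chr3:95434140-95434439, plus strand: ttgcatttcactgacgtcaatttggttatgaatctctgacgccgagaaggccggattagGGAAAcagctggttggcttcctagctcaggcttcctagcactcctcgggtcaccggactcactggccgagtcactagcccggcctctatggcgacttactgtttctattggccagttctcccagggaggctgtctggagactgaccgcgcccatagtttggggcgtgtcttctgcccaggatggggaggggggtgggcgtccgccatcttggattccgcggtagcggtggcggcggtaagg
Egln1, chr8:124949205-124949504, minus strand: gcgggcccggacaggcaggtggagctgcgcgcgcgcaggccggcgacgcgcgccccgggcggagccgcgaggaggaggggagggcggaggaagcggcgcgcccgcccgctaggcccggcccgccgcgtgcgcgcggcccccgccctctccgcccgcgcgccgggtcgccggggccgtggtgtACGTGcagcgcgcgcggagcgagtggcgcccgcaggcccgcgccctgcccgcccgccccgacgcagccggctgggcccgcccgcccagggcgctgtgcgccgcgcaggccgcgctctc
The Hif1a window held ACGTG at 3 positions, of which a pair lie over each other in CACGTG, a run that reads the same on both strands, and it held GGAAA once. Egln1 held ACGTG once and no GGAAA, and Arnt held GGAAA once and no ACGTG. Promoters were found for 9 of the 10 members (10 windows, with Epas1 unmatched), and ACGTG was present for 4 of these members and GGAAA for 7. Of all 32851 promoters of the same length, 19.6% held ACGTG and 61.3% held GGAAA. These matches describe letters and were not measured as binding sites. Other forms of the hypoxia response core, such as GCGTG, were not searched or counted.

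Depth was 1880464 to 7508215 reads per library, and 1 read was worth 0.534 to 2.27 normalized reads, so that weak genes are least precise in the shallowest libraries, wild-type replicate 1 and mfn2-/- replicate 4. The latter detected 9646 genes, the fewest, and wild-type replicate 4 detected 15270, the most. Each group held 2 libraries with Y-linked reads, that is reads of Uty, Kdm5d, Eif2s3y or Ddx3y (wild-type replicates 3 and 4, mfn2-/- replicates 1 and 2) and 2 with 0 such reads. The targeted gene, Mfn2, gave 243, 245, 202 and 228 normalized reads in wild-type replicates 1 to 4 and 104, 118, 172 and 110 in mfn2-/- replicates 1 to 4. These values did not overlap (log2 change -0.88, SE 0.30, exact permutation p = 0.0286), but the limma adjusted p was 0.0848, and transcript was still counted in every mfn2-/- library. Pax7, the defining transcript of muscle stem cells, was present in all 8 libraries (662 ± 45.9 normalized reads in wild-type against 715 ± 96.1 in mfn2-/- ASCs, SD, n = 4, limma adjusted p 0.780).

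Markers of other cells moved with genotype. The summed level of 12 fibroadipogenic markers was 194160 to 252977 normalized reads in the wild-type libraries and 5303 to 9769 in the mfn2-/- libraries. The wild-type sum lay mainly in the collagens Col1a1 (mean 106037), Col1a2 (58895) and Col3a1 (25145). By limma at an adjusted p under 0.05, 10 of the 12 fell. Dpt (log2 difference -1.66) and Ly6a (2.08) were not called. All 10 tenocyte markers fell (summed level 40809 to 65595 against 306 to 435 normalized reads). Several averaged under 10 in mfn2-/- ASCs, such as Chad (0.198), Cilp2 (1.83) and Comp (3.32), and the fibroadipogenic Lum (4.88) and Pi16 (2.67). These passed the filter of a mean of at least 10 through the wild-type libraries. Pdgfra, which defines fibroadipogenic cells, went from 2531 ± 695 to 31.9 ± 26.5 normalized reads and was at 0 in mfn2-/- replicate 4, and the mural marker Pdgfrb went from 583 ± 60.9 to 73.8 ± 16.1. Among 7 mural markers tested, 3 fell and 1 rose. Of the 12 endothelial markers 0 passed limma's test, 0 had an unadjusted p under 0.05 and 0 were called by edgeR or DESeq2 (summed level 1285 to 2084 against 1590 to 2524 normalized reads). Of 12 muscle stem cell markers 3 rose, Myod1, Sdc4 and Des, and 9 were not called (12954 to 18260 against 30696 to 42224). That sum moved mainly through Sdc4 (mean 4271 in wild-type against 17473 in mfn2-/- ASCs) and Des (2156 against 7969). Of 11 myofiber markers tested 2 rose, Myh1 and Myh4 (summed level 1260 to 3374 against 2874 to 4250), and Ckm, the muscle creatine kinase that defines fibers, stood at 114 ± 58.4 and 198 ± 102 normalized reads (limma adjusted p 0.347). Of 5 glia markers tested Cdh19 fell (375 to 791 against 331 to 554), and of 5 macrophage and neutrophil markers 0 were called, 0 had an unadjusted p under 0.05 and 0 were called by edgeR or DESeq2 (47.5 to 152 against 101 to 171). The part of these cells in the changes described here was not tested, and in bulk RNA fewer cells of a type and less RNA per cell cannot be told apart.

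By limma with Benjamini-Hochberg adjustment at 0.05 over all genes, 3 of the 10 members were called, beside 10.4% of all genes tested. Because the members were chosen with earlier results of these data known, their share is a description and not a test. Hif1a and Arnt rose, where 3.99% of all genes did, and Egln1 fell, where 6.36% did. The groups did not overlap for 4 members, these 3 and Arnt2, whose separation rests on libraries at the floor of 3 reads, and for 19.5% of all genes. The median log2 change over the 10 members was -0.01, with 5 positive and 5 negative values, and the median over all genes tested was -0.16. The latter moved to 0.07 with quantile normalization, so the called changes were also taken relative to the median of all genes, which gave 2.00 for Hif1a, 1.08 for Arnt and -1.11 for Egln1.

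**Figure D1:**
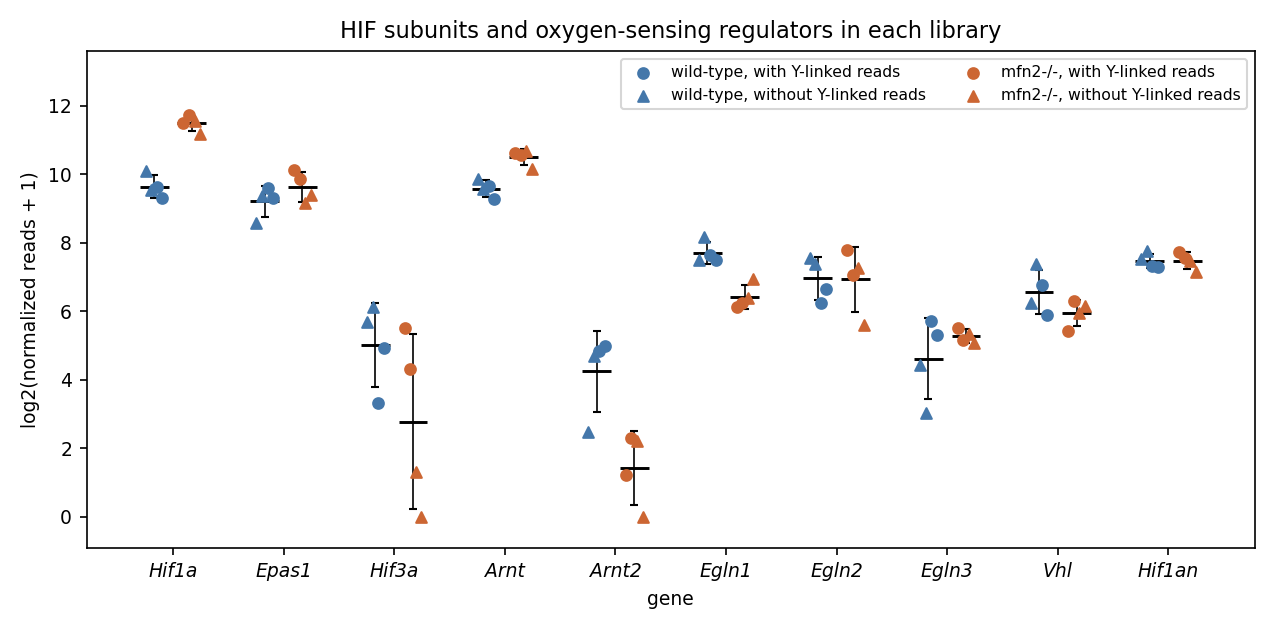
Log2(normalized reads + 1) of each member (vertical axis) in the 4 wild-type (blue) and 4 mfn2-/- (orange) libraries, 1 point per library, with circles for libraries with Y-linked reads, triangles for those without, and bars for the mean ± SD of the log2 values. Hif1a and Arnt are higher and Egln1 lower in every mfn2-/- library than in any wild-type library, Arnt2 is separated by libraries at the floor of 3 reads or fewer, and the other 6 members overlap.

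The plot of member values by library shows that abundance and spread differed widely among the members. Hif1a, Epas1 and Arnt stood at 378 normalized reads or more in all libraries, and Hif3a and Arnt2 came down to 0 in mfn2-/- replicate 4.

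Among the alpha subunits, Hif1a rose 3.56-fold in mfn2-/- ASCs. It encodes the alpha subunit found in most cells and the one tied most closely to the glycolytic response. The gene lies at chr12:73901375-73947530 on the plus strand (GENCODE M21, GRCm38), and its exons overlap those of Gm49321 on the same strand and Gm15283 on the opposite one. Hif1a measured 1089, 739, 784 and 634 normalized reads in wild-type replicates 1 to 4 and 2875, 3366, 2987 and 2320 in mfn2-/- replicates 1 to 4. The lowest mfn2-/- library was thus above the highest wild-type library, and the shallowest library of each group gave the highest wild-type and the lowest mfn2-/- value. The group means were 812 ± 195 and 2887 ± 433 (SD, n = 4), from 479 to 1187 reads per wild-type and 1266 to 4312 per mfn2-/- library. The log2 change was 1.85 (SE 0.20, 95% interval 1.41 to 2.29), and Hif1a ranked 74th by p among the 11754 genes (limma adjusted p 7.97e-05, exact permutation p = 0.0286, the smallest that 70 arrangements can give). It passed the threshold in 22 of 22 alternative settings (limma, edgeR and DESeq2 adjusted p 1.66e-14 to 0.0107). Within the libraries with Y-linked reads the log2 change was 2.14, and within those without it was 1.55.

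Epas1, also called HIF2A, encodes an alpha subunit that is abundant in endothelial cells and in quiescent muscle stem cells (chr17:86753700-86833410, plus strand). It measured 378, 659, 779 and 628 normalized reads in wild-type replicates 1 to 4 and 1113, 920, 569 and 676 in mfn2-/- replicates 1 to 4. The groups overlapped, with the highest values in mfn2-/- replicates 1 and 2 and the lowest in wild-type replicate 1. With a log2 change of 0.42 (SE 0.27, 95% interval -0.16 to 1.01, limma adjusted p 0.370), Epas1 did not pass the threshold, and 0 of 22 alternative settings called it. Without wild-type replicate 1, the library with the lowest Epas1, the log2 difference was 0.21, and without mfn2-/- replicate 1 it was 0.26. Pecam1, an endothelial marker, gave 232 ± 100.3 normalized reads in wild-type against 378 ± 117 in mfn2-/- ASCs (log2 change 0.74, limma adjusted p 0.213), and it was also highest in mfn2-/- replicate 1 and lower in wild-type replicates 1 and 2 than in any other library. The log2 difference was positive for 8 of the 12 endothelial markers and negative for Kdr (-0.32), Vwf (-0.29), Erg (-0.44) and Emcn (-0.59). The part of endothelial RNA in the Epas1 values was not tested.

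Hif3a encodes a subunit of which several forms restrain the other alpha subunits (chr7:17031507-17062427, minus strand). It measured 50.0, 68.4, 8.98 and 29.4 normalized reads in wild-type replicates 1 to 4 and 44.7, 19.0, 1.47 and 0 in mfn2-/- replicates 1 to 4. The last 2 of these libraries held 2 and 0 reads, below the floor of 3 reads, and the groups overlapped. Its log2 change of -2.22 had an SE of 1.34 and a 95% interval from -5.11 to 0.66 (limma adjusted p 0.335). It was 0.79 in the libraries with Y-linked reads and -5.24 in those without, and the interaction of genotype and Y-linked reads gave an unadjusted p of 0.0112 and an adjusted p of 0.239 in limma.

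Per kilobase of exon the alpha subunits could be compared with each other. In wild-type ASCs Hif1a stood at 138 ± 33.2 and Epas1 at 109 ± 30.2 normalized reads per kb, means that differed by less than their SD. Hif3a stood at 5.84 ± 3.83. In mfn2-/- ASCs these levels were 490 ± 73.4, 147 ± 43.7 and 2.43 ± 3.10. As a share of the alpha subunit transcripts per kb, Hif1a was 71.1, 49.5, 48.6 and 47.9% in wild-type replicates 1 to 4 and 70.3, 77.3, 83.2 and 76.5% in mfn2-/- replicates 1 to 4. The shares overlapped, because wild-type replicate 1, where Epas1 was lowest, stood beside the mfn2-/- libraries. The means were 54.3 ± 11.2% and 76.8 ± 5.28% for Hif1a and 43.4 ± 11.7% and 22.8 ± 4.92% for Epas1. These shares and the ratios that follow were chosen after the values had been seen and are given without a test.

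Of the partner subunits, Arnt rose 1.89-fold. ARNT, or HIF1B, is the constitutive partner of the HIF alpha subunits and of the aryl hydrocarbon receptor (chr3:95434388-95497240, plus strand). It measured 921, 752, 801 and 616 normalized reads in wild-type replicates 1 to 4 and 1554, 1516, 1648 and 1134 in mfn2-/- replicates 1 to 4. All mfn2-/- values lay above all wild-type values, with mfn2-/- replicate 4 the nearest. The means were 773 ± 126 and 1463 ± 226, and the log2 change was 0.92 (SE 0.20, 95% interval 0.50 to 1.34, limma adjusted p 0.00957, exact permutation p = 0.0286). The change was 1.13 with and 0.72 without Y-linked reads. Arnt passed the threshold in 21 of 22 alternative settings and lost its call without the intensity trend (limma adjusted p 0.0941).

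Arnt2, a partner best known from neurons, was a weak transcript (chr7:84246278-84410176, minus strand). It measured 4.55, 24.9, 27.8 and 30.5 normalized reads in wild-type replicates 1 to 4 and 1.33, 3.95, 3.68 and 0 in mfn2-/- replicates 1 to 4. These values stand for 2, 24, 34 and 57 reads against 2, 5, 5 and 0 reads, and 3 of the 8 libraries were at the floor of 3 reads or fewer. Arnt2 passed the filter on low values through the wild-type libraries. The groups did not overlap, but wild-type replicate 1, with 2 reads, was above mfn2-/- replicates 2 and 3, with 5 reads each, only through its size factor, and its value was below the 6.82 normalized reads that 3 reads are worth there. The log2 change was -2.81 (SE 1.16, 95% interval -5.31 to -0.31), and the limma adjusted p of 0.150 did not pass. With a pseudocount of 10 the log2 difference was -1.29. Arnt2 shares exonic sequence with Gm30873 on the opposite strand. Arnt made up 95.1 to 99.5% of the ARNT transcripts per kb in wild-type and 99.7 to 100% in mfn2-/- libraries.

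**Figure D2:**
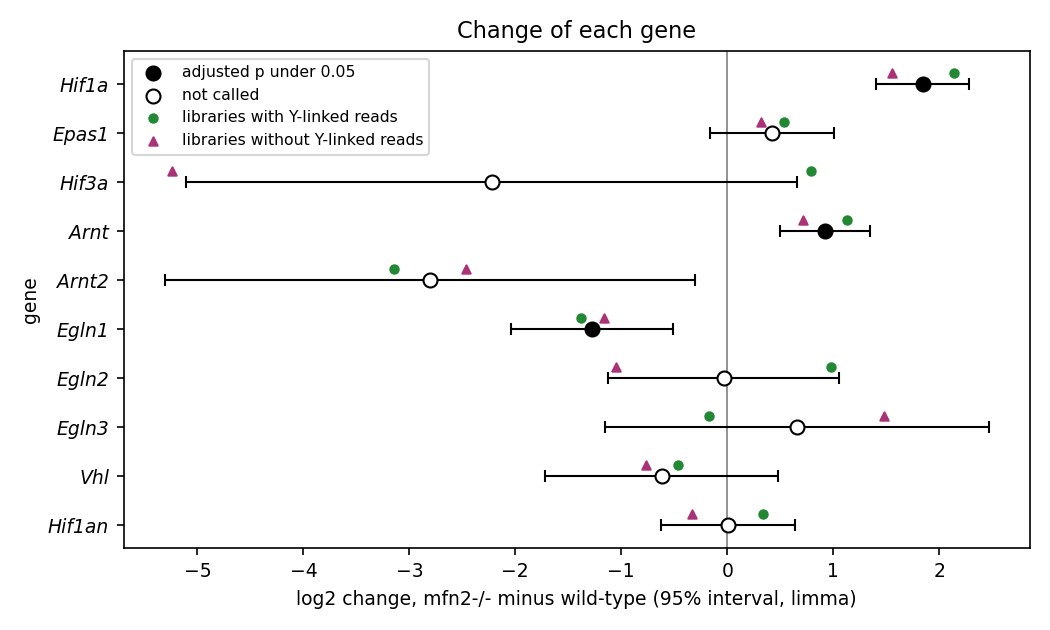
Log2 change of each member, mfn2-/- minus wild-type, with its 95% interval from limma, beside the change within the libraries with and without Y-linked reads. Hif1a, Arnt and Egln1 passed the adjusted threshold, the intervals of Hif3a and Arnt2 are the widest, and Hif3a, Egln2, Egln3 and Hif1an change sign between the kinds of library.

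The plot of changes orders the members by role and shows that the intervals of Hif1a and Arnt were narrow beside those of the weak transcripts. Hif1a and Arnt rose by unequal amounts. In wild-type replicates 1 to 4 the linear ratio of Hif1a to Arnt was 1.18, 0.983, 0.979 and 1.03, and in mfn2-/- replicates 1 to 4 it was 1.85, 2.22, 1.81 and 2.05. These ratios did not overlap, and on the log2 scale they moved from 0.06 ± 0.13 to 0.98 ± 0.14. The log2 ratio of Hif1a to Epas1 moved from 0.43 ± 0.74 to 1.85 ± 0.42, with overlap between wild-type replicate 1 (1.53) and mfn2-/- replicate 1 (1.37). The linear ratio within a library does not depend on the size factor of that library. The log2 ratios were taken with 1 added to each value, so the size factor hardly moves them.

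**Figure D3:**
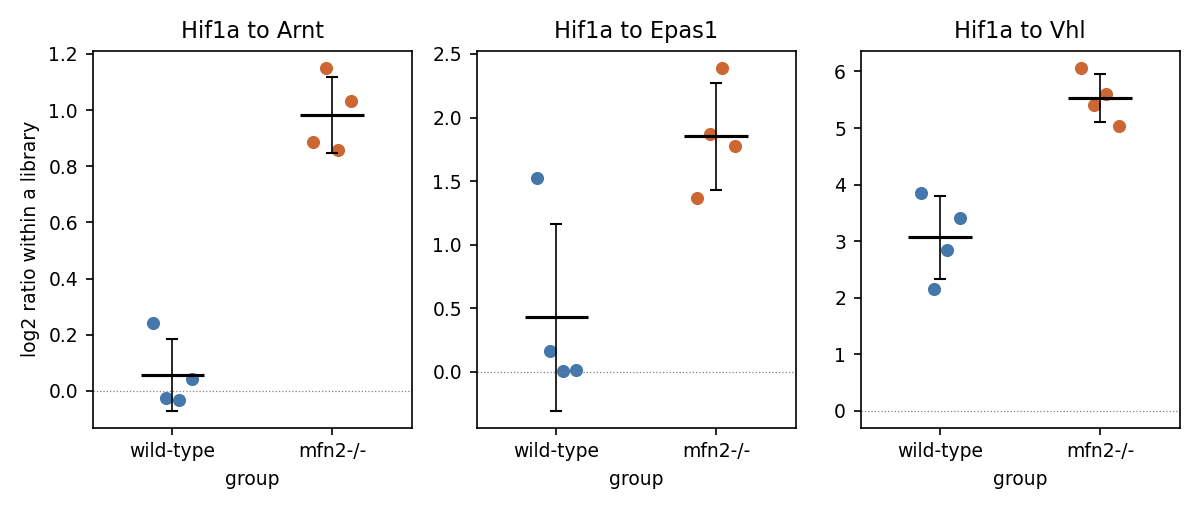
Log2 ratios of Hif1a to Arnt, Epas1 and Vhl in each library, 1 point per library, with bars for the mean ± SD of the 4 libraries of a group. The ratios to Arnt and to Vhl are higher in every mfn2-/- library than in any wild-type library, and the ratio to Epas1 overlaps.

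Among the prolyl hydroxylases 1 of 3 was called, beside 10.4% of all genes, and differences between them were not tested. Egln1, which encodes PHD2, the main oxygen sensor for HIF1A in most tissues, fell 2.42-fold (chr8:124908587-124949324, minus strand). It measured 179.7, 284, 200.1 and 179.5 normalized reads in wild-type replicates 1 to 4 and 69.3, 75.1, 83.3 and 120.9 in mfn2-/- replicates 1 to 4. The highest mfn2-/- value, from the shallow replicate 4, was below the lowest wild-type value. The means were 211 ± 49.8 and 87.2 ± 23.2, from 79 to 336 reads per wild-type and 66 to 113 per mfn2-/- library. The log2 change was -1.27 (SE 0.35, 95% interval -2.04 to -0.51, limma adjusted p 0.0368, exact permutation p = 0.0286), and it was -1.38 with and -1.16 without Y-linked reads. This call was close to the threshold and held in 12 of 22 alternative settings. It was lost when any 1 of wild-type replicates 2, 3 and 4 or mfn2-/- replicates 1, 2 and 3 was left out, with limma adjusted p of 0.0756 to 0.108, while the log2 change stayed between -1.44 and -1.12.

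Egln2 encodes PHD1, a hydroxylase with high expression in testis and hormone-responsive tissue (chr7:27158658-27166802, minus strand, sharing exonic sequence with Cyp2t4 on the opposite strand). It measured 189, 167, 75.1 and 98.8 normalized reads in wild-type replicates 1 to 4 and 221, 133, 152 and 47.6 in mfn2-/- replicates 1 to 4. The ranges overlapped widely, and both libraries with Y-linked reads were higher in the mfn2-/- than in the wild-type group while both libraries without were lower. On the log2 scale Egln2 differed by -0.03 (SE 0.50, 95% interval -1.12 to 1.05, limma adjusted p 0.977), and its sign depended on the setting. It turned to 0.01 with equal library totals, 0.21 with quantile normalization, 0.59 with library weights, 0.61 without the 2 shallowest libraries and 0.41 without mfn2-/- replicate 4, and it was -0.32 without mfn2-/- replicate 1. The log2 difference was 0.98 with Y-linked reads and -1.05 without.

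Egln3 encodes PHD3, itself a classical target of HIF (chr12:54178981-54203860, minus strand). It measured 20.5, 7.26, 51.4 and 38.5 normalized reads in wild-type replicates 1 to 4 and 44.7, 34.8, 39.8 and 33.0 in mfn2-/- replicates 1 to 4. The mfn2-/- values fell inside the wild-type range, which was wide because wild-type replicates 1 and 2 were low. The log2 difference was 0.66 (SE 0.84), with a 95% interval of -1.15 to 2.47 and a limma adjusted p of 0.674, and it was -0.17 with and 1.48 without Y-linked reads. It was 0.13 without wild-type replicate 2, 0.12 with library weights and 1.35 with quantile normalization. Per kb, Egln1 stood at 58.7 ± 13.9, Egln2 at 47.3 ± 19.3 and Egln3 at 11.05 ± 7.32 normalized reads in wild-type ASCs, and Egln1 and Egln2 differed by less than their SD. In mfn2-/- ASCs the levels per kb were 24.2 ± 6.47 for Egln1, 49.4 ± 25.5 for Egln2 and 14.3 ± 1.98 for Egln3. Egln1 made up 40.0 to 55.9% of the EGLN transcripts per kb in wild-type and 16.8 to 53.4% in mfn2-/- libraries, shares that overlapped.

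Vhl, the substrate receptor that binds hydroxylated alpha subunits, was not called (chr6:113623959-113631633, plus strand). It measured 75.0, 165, 108 and 58.8 normalized reads in wild-type replicates 1 to 4 and 42.0, 78.2, 60.4 and 69.6 in mfn2-/- replicates 1 to 4. The groups overlapped, and the wild-type spread (102 ± 46.8) was wider than that of the mfn2-/- group (62.6 ± 15.5). The log2 difference was -0.62 (SE 0.51), its 95% interval ran from -1.72 to 0.48 and the limma adjusted p was 0.491. It was -0.35 without wild-type replicate 2, the highest library, -0.36 with library weights and -0.29 with quantile normalization. Set against Vhl, Hif1a was 4.48 to 14.5 times as high in wild-type and 33.3 to 68.4 times as high in mfn2-/- libraries, in normalized reads not corrected for length, as the plot of ratios shows.

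Hif1an encodes FIH, the asparaginyl hydroxylase that limits coactivator binding (chr19:44562850-44576274, plus strand). It measured 182, 214, 159 and 155 normalized reads in wild-type replicates 1 to 4 and 211, 188, 175 and 139 in mfn2-/- replicates 1 to 4. The group means were 177 ± 26.9 and 179 ± 30.1, the closest of the 10 members. The log2 difference was 0.00 (SE 0.29, adjusted p 0.995 by limma), the 95% interval ran from -0.63 to 0.64, and the sign turned to -0.05 when libraries were scaled to equal totals outside the fibroadipogenic, tenocyte and mural markers. It was 0.34 with Y-linked reads and -0.33 without.

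Direction was the same in both kinds of library for 6 members and opposite for 4, Hif3a, Egln2, Egln3 and Hif1an. The interaction of genotype and Y-linked reads passed limma's adjusted threshold for 0 members, beside 1.47% of all genes, and for 2 at an unadjusted p under 0.05, Hif3a and Egln2 (0.0401, adjusted 0.385), beside 12.0% of all genes. Within a group the kind of library coincides with the pair of replicate numbers, so sex-linked expression and library pair cannot be told apart. The shallowest library of each group, wild-type replicate 1 and mfn2-/- replicate 4, had no Y-linked reads, so depth is not separated from these either.

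**Figure D4:**
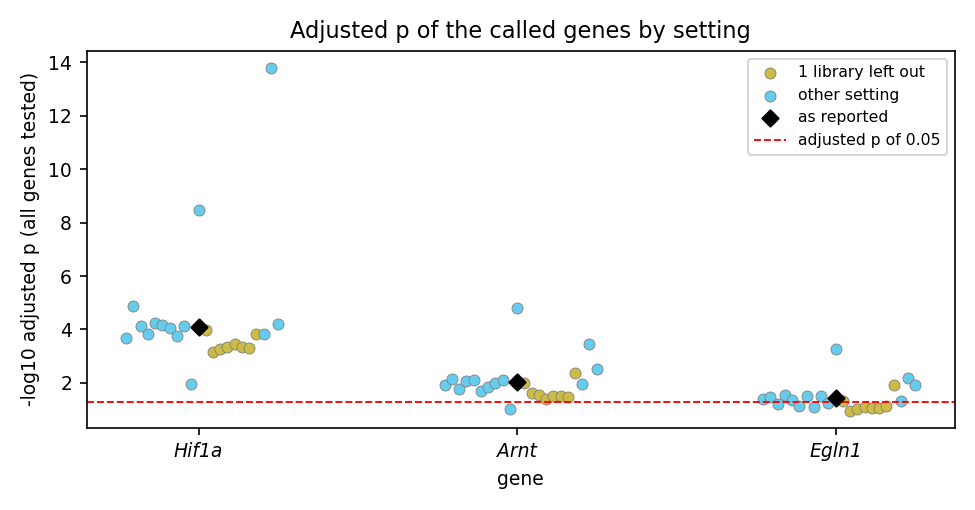
The -log10 of the adjusted p over all genes (vertical axis) for the 3 called members, with the reported value as a diamond, yellow points for fits with 1 library left out, blue points for the other settings and a dashed line at an adjusted p of 0.05. Every point of Hif1a and all but 1 of Arnt lie above the line, and 10 of the 22 points of Egln1 besides the reported one lie below it.

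The plot of adjusted p by setting shows how far each call stood from the threshold. Of the other members, Hif3a, Egln2, Egln3, Epas1, Vhl and Hif1an were called in 0 settings each, and Arnt2 was called in 1, with library weights (limma adjusted p 0.0236). The log2 change of Hif3a ran from -3.19 to -0.45 over 21 settings.

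The nearest profiles to Hif1a were then sought among the 5584 other genes that averaged 100 normalized reads or more, by the root mean square difference of centred log2 values over the 8 libraries. The closest were Pmaip1 (0.235), Nfil3 (0.247), Pdk4 (0.254), Sowahc (0.267) and Uhrf1bp1l (0.273). Pmaip1 encodes the BH3 protein NOXA, Nfil3 a bZIP repressor, and Pdk4 a kinase that holds back pyruvate dehydrogenase. Pdk4 averaged 1051 ± 324 and 3012 ± 364 normalized reads in the wild-type and mfn2-/- libraries, and Nfil3 averaged 195 ± 43.8 and 582 ± 134. Because Hif1a differs by genotype, genes near its profile also differ by genotype, and their own calls are no separate result.

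The rest of the pathway was read from fixed lists of genes, chosen with earlier results of these data known and not tested as sets. Over all genes limma called 3.99% higher and 6.36% lower, and 24.8% had an unadjusted p under 0.05. Around VHL, which works in a ligase with cullin 2, elongins and RBX1, 6 partners were tested and 0 passed limma's threshold, with 2 at an unadjusted p under 0.05 and 0 called by edgeR or DESeq2. Cul2, the scaffold, gave 143 normalized reads in wild-type against 239 in mfn2-/- ASCs (log2 change 0.76, limma adjusted p 0.160). Usp33, a deubiquitinase regulated by VHL, gave 380.2 and 345 (-0.15, limma adjusted p 0.729). The median log2 change of the 6 was 0.67, beside -0.16 for all genes.

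Of 13 genes for the stability and folding of HIF proteins, 1 rose and 0 fell, beside 3.99% and 6.36% of all genes (median log2 change 0.48). The riser was Mdm2, the ubiquitin ligase of p53, at 324 ± 101 normalized reads in wild-type against 641 ± 79.9 in mfn2-/- ASCs (log2 change 1.02, limma adjusted p 0.0175). Among 6 coactivators and CITED inhibitors, 2 rose and 0 fell (median 0.61). Ep300, the acetyltransferase p300, went from 989 ± 89.1 to 1617 ± 337 (0.69, limma adjusted p 0.0348), and Ncoa3, a steroid receptor coactivator, from 451 ± 114 to 785 ± 112 (0.83, limma adjusted p 0.0389). These 3 calls depended on single libraries. Mdm2 lost its call without 1 of wild-type replicate 3 or mfn2-/- replicates 1 and 3, Ncoa3 kept it in 2 and Ep300 in 1 of the 8 fits with a library left out, with limma adjusted p up to 0.0599, 0.107 and 0.107.

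Other PAS-domain factors, among them the PER proteins, which lack a bHLH domain, held 2 risers among 10 genes tested and 0 that fell. Over all genes 3.99% rose and 6.36% fell, and the median log2 change of the list was 0.19. Ahr, the aryl hydrocarbon receptor and a partner of ARNT, went from 133 ± 100.05 to 916 ± 205 normalized reads (log2 change 3.11, limma adjusted p 0.00111). Per2, a circadian repressor, went from 365 ± 97.7 to 1037 ± 169 (1.53, limma adjusted p 0.00127).

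Of 8 factors known to act on Hif1a transcription, 4 rose and 1 fell, beside 3.99% and 6.36% of all genes (median log2 change 1.00). This list was chosen with earlier results of these data known, so its count is a description only. Stat3, the cytokine-activated factor, went from 1756 ± 658 to 4887 ± 286 normalized reads (1.55, limma adjusted p 0.00133), and Nfkb1 and Rela, subunits of NF-kB, went from 756 ± 362 to 2683 ± 433 (1.95, limma adjusted p 0.00133) and from 632 ± 298 to 1439 ± 227 (1.30, limma adjusted p 0.0160). Nfatc2, a calcium-dependent NFAT factor, went from 277 ± 60.7 to 712 ± 142 (1.36, limma adjusted p 0.00267). The NFAT factor Nfatc4 fell instead, from 125 ± 56.6 to 4.94 ± 3.93 (-4.67, limma adjusted p 0.0110). Its mfn2-/- libraries held 0 to 13 reads, and it passed the filter on low values through the wild-type libraries. The fall had the direction of the fibroadipogenic and tenocyte markers, whose part in it was not tested. Rela lost its call without 1 of wild-type replicates 3 and 4, and Nfatc4 without wild-type replicate 4 (limma adjusted p 0.0531 in the weakest fit of each).

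Of 18 transcripts that HIF is known to induce outside glycolysis, 1 rose and 0 fell, beside 10.4% called over all genes. A difference from that share was not tested. The median log2 change was 0.06 and 10 were positive. At an unadjusted p under 0.05 there were 4, beside 24.8% of all genes. All 4 were higher, Ndrg1, Hmox1 (log2 difference 1.02), Slc2a1 (0.93) and Kdm3a (0.46), of which the last 3 are named after their values were seen. Next by unadjusted limma p (0.0523 to 0.0781), and also named after the values were seen, Higd1a (2.25) and Bhlhe40 (0.49) were higher. In that same range of p, Pdk1 (-2.31), Adm (-1.83) and P4ha2 (-1.01) were lower. The 1 gene called was Ndrg1, a hypoxia-responsive stress gene, at 694 ± 187 normalized reads in wild-type against 1547 ± 213 in mfn2-/- ASCs (log2 change 1.19, limma adjusted p 0.00419).

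**Figure D5:**
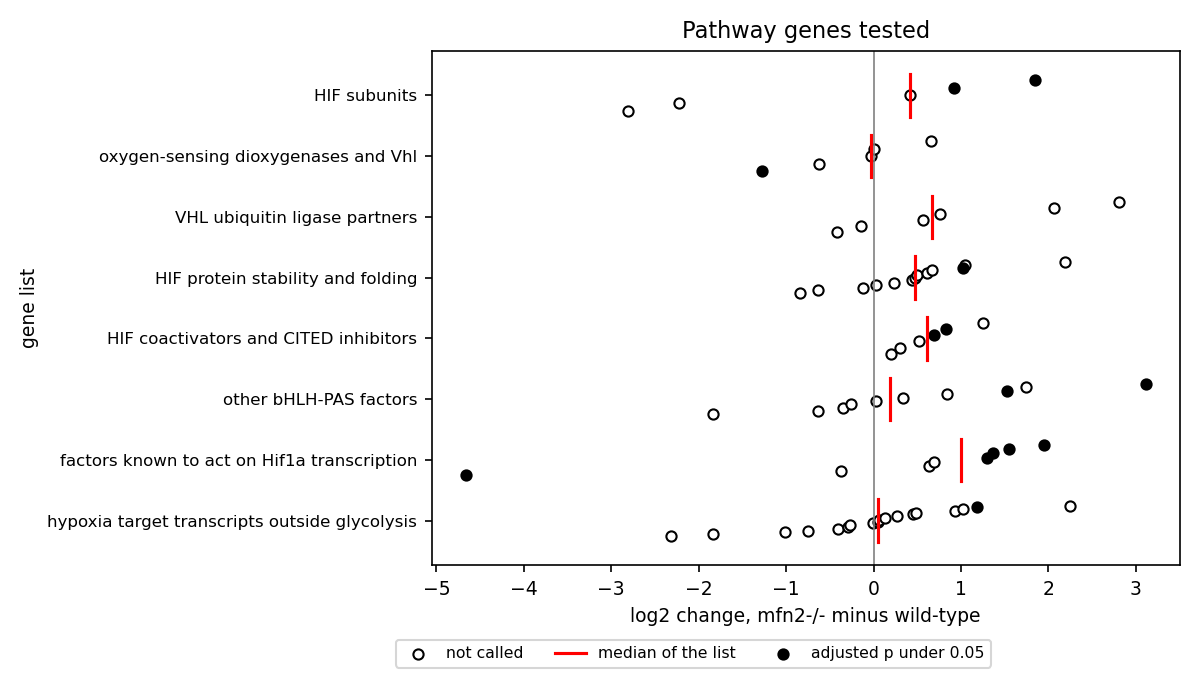
Log2 change, mfn2-/- minus wild-type, of every tested gene of the members and the pathway lists, 1 point per gene, filled where the limma adjusted p was under 0.05, with the median of each list as a red line. The list of factors known to act on Hif1a transcription has the most filled points, 4 above and 1 below 0, and the hypoxia targets spread to both sides of 0. The lists were chosen with earlier results of these data known, and the list labelled other bHLH-PAS factors includes the PER genes.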

How the data were processed

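Total RNA of sorted ASCs was sequenced from 4 wild-type and 4 mfn2-/- samples with a stranded low-input total RNA kit, and groups were taken from the sample titles. The submitters' processing notes name Trim Galore, HISAT2, featureCounts, DESeq2 and the build mm9, with no versions or strand setting. What the authors deposited is a normalized signal for each gene symbol, made of read counts divided by 1 size factor per library. In every library 100% of values were whole multiples of 1 step (tolerance 0.01), so whole reads were recovered for depth, edgeR and DESeq2. The reads carry no molecular identifiers, so they may include PCR copies.

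Genes with a mean of at least 10 were tested with limma 3.58.1 (R 4.3.3) on log2(value + 1), fitting genotype alone with a mean-variance trend. Two-sided p were adjusted by Benjamini-Hochberg with a threshold of 0.05. Changes of weak genes depended on the model. Hif3a changed by -2.22 in limma, -1.25 in DESeq2 and -1.11 in edgeR, and Egln3 by 0.66, 0.36 and 0.43. Arnt2 went the other way, with -2.81, -3.23 and -3.09. Exact permutation tests over 70 arrangements were two-sided. Alternatives tried were a pseudocount of 0.1 or 10, no filter, a mean of at least 50, other scalings, the replicate number as a block, a term for Y-linked reads, library weights, no trend, leaving out each library, edgeR 4.0.16 and DESeq2 1.42.0. Leaving out the 2 shallowest libraries was added after the data had been seen. Tests were checked on simulated counts. Positions are from GENCODE M21 (GRCm38), since the table has none. All members and, of each pathway list, every called gene or else the 2 most abundant are named, with 5 genes nearest to Hif1a, Mfn2 and 5 defining markers. The members and lists were chosen with earlier results of these data known.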

Additional observations from a re-analysis of the deposited data

Results flagged for a closer look

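Egln2 stood out because both mfn2-/- libraries with Y-linked reads were above both wild-type libraries of that kind, and both mfn2-/- libraries without were below. The difference between the kinds was 2.03 on the log2 scale (limma interaction p 0.0401, adjusted p 0.385). Hif1an showed the same arrangement with a difference of 0.68 (limma interaction p 0.230, adjusted p 0.633). Neither passed the adjusted threshold. Of 20 groups of 4 libraries, 0 held a value past Dixon's 95% limit, where chance gives about 1.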

How the results depend on the processing

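The limma count of 1217 changed genes (469 higher, 748 lower) became 633 (113 higher) without the trend, with 1 member called, and 3037 (1398 higher, 1639 lower) with library weights, whose lowest was 0.167 (mfn2-/- replicate 4) and highest 3.75 (mfn2-/- replicate 2). Leaving out single libraries gave 670 to 1307 genes (235 to 470 higher, 435 to 837 lower), fewest without wild-type replicate 3 (670) and replicate 4 (749), and 2 to 3 members called. edgeR called 1158 genes and DESeq2 1738. The 173 interaction genes became 109 with no filter, 115 with equal totals outside the markers, 117 with equal totals or quantile normalization, 0 without the trend (1191 at an unadjusted p under 0.05) and 31 to 1338 without single libraries, most without mfn2-/- replicate 3.

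Hif1a changed by 2.14 with and 1.55 without Y-linked reads, Hif3a by 0.79 and -5.24, Egln2 by 0.98 and -1.05, and Hif1an by 0.34 and -0.33. Without the trend Arnt kept 0.92 and lost its call (limma adjusted p 0.0941), and with library weights Arnt2 passed at -2.77 (0.0236). Egln1 was not called with no filter (-1.27, limma adjusted p 0.0589), quantile normalization (-1.09, 0.0695), no trend (-1.27, 0.0549) or the replicate block (-1.27, 0.0812), and it ran from -1.44 to -1.12 without single libraries (0.0120 to 0.108). The causes were not tested. The replicate block gave 1043 changed genes and changed no other call among the members. Deviations of same-numbered libraries correlated at -0.03, -0.05, 0.04 and -0.11 and no library correlated best with its own number, so the numbers were not taken as pairs. Arnt2 and Hif3a stood on 0 to 67 reads per library, and the part of depth in their low values was not tested.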
